A study of Mus musculus with 7 samples.

Results

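Trh and Utf1 were among the genes furthest above their 0 h value soon after light was switched on in mouse embryonic stem cells built to induce Brn2. These 2 genes, of 20294 in the table, are described here across all 7 libraries. They were picked because their values at 2, 4 and 6 h stood far above the 0 h value, so those differences are given as a description without a test. No threshold was set for the choice, and each gene has 1 row in the table, found by its RefSeq transcript. Messenger RNA came from E14 cells, a line of mouse embryonic stem cells, grown in 2i, a medium whose kinase inhibitors hold such cells in the naive state. Every library, the one at 0 h included, came from cells with the same cassette, in which the light-switched activator GAVPO drives Brn2 together with a red fluorescent protein. The groups are labelled times of LED light at 300 µW, namely 0, 2, 4, 6, 14, 24 and 48 h, with 1 library each. With no replicate, each time stands for 1 library, and the errors given for levels cover counting alone. Their clonal origin was not given in the sources used here.

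Trh encodes the precursor of thyrotropin-releasing hormone, a secreted tripeptide. The precursor holds several copies of the hormone's sequence between pairs of basic residues. Prohormone convertases cut them out, a carboxypeptidase trims them, glutaminyl cyclase closes the first residue and an amidating enzyme finishes the last. In the hypothalamus the peptide drives thyrotropin release, through a receptor coupled to Gq proteins, and thyroid hormone holds the gene down there. Utf1, undifferentiated embryonic cell transcription factor 1, is a chromatin-bound protein of pluripotent and germ cells and a classic target of Oct4 and Sox2. In mouse stem cells it is known to limit binding of Polycomb repressive complex 2 at genes with bivalent chromatin and to bring the mRNA decapping machinery to their transcripts.

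Both genes were lowest at 0 h, which the choice favoured, and highest at 48 h. The same held for 16.6% of 1814 genes with a deposited value of at least 10 in any library. The 250 bases before the transcription start of each gene are shown so that their promoters can be compared. They are RefSeq sequences of build GRCm38.p6, at chr6:92244651-92244900 on the minus strand for Trh and at chr7:139943606-139943855 on the plus strand for Utf1. Capitals mark matches on either strand to 5 motifs: the octamer of POU factors (ATTTGCAT), a TATA core (TATAA), the GC box (GGGCGG), a nuclear receptor core (TGACCT) and a Sox core (CATTGT).
Trh: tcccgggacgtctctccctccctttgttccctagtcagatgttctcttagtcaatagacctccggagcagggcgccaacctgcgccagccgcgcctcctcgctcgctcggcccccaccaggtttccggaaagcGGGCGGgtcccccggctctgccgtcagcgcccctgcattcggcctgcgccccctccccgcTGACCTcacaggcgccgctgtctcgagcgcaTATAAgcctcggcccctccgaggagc
Utf1: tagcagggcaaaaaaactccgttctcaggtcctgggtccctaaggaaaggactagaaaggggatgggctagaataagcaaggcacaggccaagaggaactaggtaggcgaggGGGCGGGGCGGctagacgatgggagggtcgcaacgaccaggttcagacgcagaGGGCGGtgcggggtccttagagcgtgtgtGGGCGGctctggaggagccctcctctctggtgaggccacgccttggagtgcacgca
The Trh window held 1 TATA core, which begins at position -26 from the start, 1 nuclear receptor core at -57 and 1 GC box at -117. The Utf1 window held 4 GC boxes, of which the first pair share a base, and no TATA core or nuclear receptor core. Neither window held the letters of the octamer or the Sox core. Only exact letters within these 250 bases were searched, so variant sites and sites elsewhere were not looked for. Over 32851 promoter windows of the same length, 22.8% held the TATA core, 14.0% the nuclear receptor core, 32.7% the GC box, 1.60% the octamer and 10.7% the Sox core. Both windows were rich in G and C, at 68.8% for Trh and 61.6% for Utf1 against a median of 52.4% over all windows. The Trh window held 25 CpG dinucleotides and the Utf1 window 14, against a median of 6.

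The deposited values behaved as RPKM, reads per kilobase scaled to depth, over a gene's genomic span with introns included, and are called values below. Trh spans 2590 bases for an mRNA of 1384 bases, so its value lies below its level per length of mRNA, while Utf1 spans 1257 bases for an mRNA of 1227. The reference lists no gene that overlaps either of them. Depth recovered from the values, in units of 1000000 reads, was between 7.03 and 16.1 a library. The embryonic stem cell markers Pou5f1, Sox2, Nanog, Zfp42, Esrrb and Dppa5a were present in every library, with a summed level of 2346 to 3834 RPKM over the mRNA. On the same scale 8 neuron markers summed to between 69.6 and 371, 8 fibroblast markers to between 2.18 and 18.7, 6 trophectoderm markers to between 6.93 and 18.6, 6 primitive endoderm markers to between 2.69 and 11.1 and 6 mesoderm markers to between 3.04 and 7.98. No marker of these lists was at 0 in every library.

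Trh was low at 0 h and high at 2 h, lower in each library up to 14 h, and highest at 48 h. Across 0, 2, 4, 6, 14, 24 and 48 h the Trh value was 6.16, 66.95, 49.5, 38.6, 23.0, 60.4 and 232. These values rest on 237, 1315, 902, 1364, 542, 1557 and 9687 recovered reads in order of time. The 0 h library stood apart below the others, since its counting interval (95%, exact Poisson) was 5.41 to 7.003 and that of the 14 h library, the next lowest, was 21.1 to 25.1. The closest neighbours in the order of levels were 24 h and 2 h, with 24 h at 0.903 of the 2 h value (95% counting interval of the ratio 0.838 to 0.972). At 2 h Trh was 10.9-fold above 0 h (95% counting interval 9.45 to 12.5), and at 48 h it was 37.8-fold above it (33.1 to 43.1). In these bulk libraries fewer cells with the transcript and less transcript per cell cannot be told apart.

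Utf1 was well expressed at 0 h, several-fold higher at 2 h, between 106 and 168 from then up to 24 h, and highest at 48 h. Across 0, 2, 4, 6, 14, 24 and 48 h the Utf1 value was 28.7, 152, 106, 168, 111, 163 and 364. The recovered reads numbered 535, 1449, 935, 2873, 1264, 2041 and 7362 in the same order. The 14 h value was 1.05 times the 4 h value (0.961 to 1.14) and the 24 h value 0.973 of the 6 h value (0.920 to 1.03), differences within counting error. The 24 h value was 1.07 times the 2 h value (1.003 to 1.15). The 0 h library (interval 26.3 to 31.2) lay below all others and the 48 h library (356 to 372) above them. At 2 h Utf1 was 5.30-fold above 0 h (4.80 to 5.87) and at 48 h 12.7-fold above it (11.6 to 13.9).

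**Figure D1:**
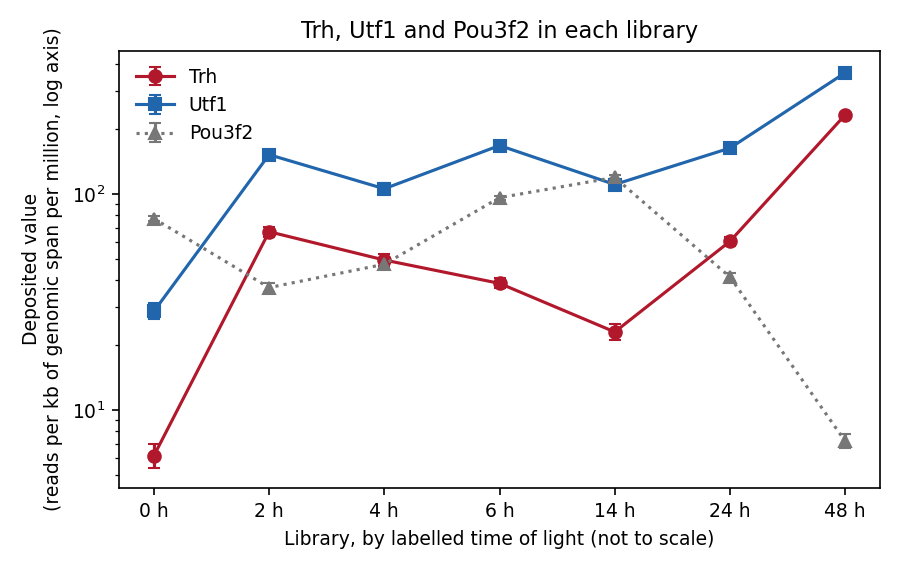
Deposited values of Trh, Utf1 and Pou3f2 (the induced Brn2) in the 7 libraries, on a log axis, with 95% Poisson counting intervals as bars; the time axis is not to scale. Trh and Utf1 are lowest at 0 h and highest at 48 h (232 and 364), while Pou3f2 is lowest at 48 h (7.19).

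Per length of mRNA the 2 genes were closer to each other than their values show. Across 0, 2, 4, 6, 14, 24 and 48 h Trh had 11.5, 125, 92.7, 72.3, 43.1, 113 and 435 RPKM over the mRNA. Utf1 had 29.4, 156, 108, 172, 113, 167 and 373 on that scale in the same order. Among 20173 genes with a known mRNA length, the level of Trh ranked 5081, 510, 1622 and 144 in the libraries of 0, 2, 14 and 48 h, and that of Utf1 ranked 2385, 409, 529 and 170. In the libraries of 0, 2, 4, 6, 14 and 24 h Utf1 stood 2.55, 1.24, 1.17, 2.38, 2.63 and 1.48-fold above Trh per length of mRNA. At 48 h the order turned, with Utf1 at 0.857 of the level of Trh.

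The ratio of each later library to the 0 h library shows how far the 2 genes stood from the rest, over genes that reached a value of 10 in either library and with 1 added to both. On this log2 scale Trh was at 3.25, 2.82, 2.47, 1.75, 3.10 and 5.03 at 2, 4, 6, 14, 24 and 48 h, and Utf1 at 2.37, 1.85, 2.51, 1.91, 2.47 and 3.62. Trh ranked 1st at 2 h, at 4 h and at 48 h, and Utf1 1st at 6 h. Each was at least 2-fold above 0 h in all 6 later libraries, as were 10 of 1814 genes that reached a value of 10 in any library (0.551%). A ratio of at least 2-fold above 0 h was found for 3.77%, 1.78%, 5.85%, 3.9%, 4.77% and 15.8% of genes at 2, 4, 6, 14, 24 and 48 h. Of the 1814 genes, 29.1% were lowest at 0 h, 31.4% were highest at 48 h and 16.6% were both, as Trh and Utf1 were. The genes were chosen on the first 3 of these ratios, and all 6 share the 0 h library, so the shares are printed as background and nothing is read from them.

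**Figure D2:**
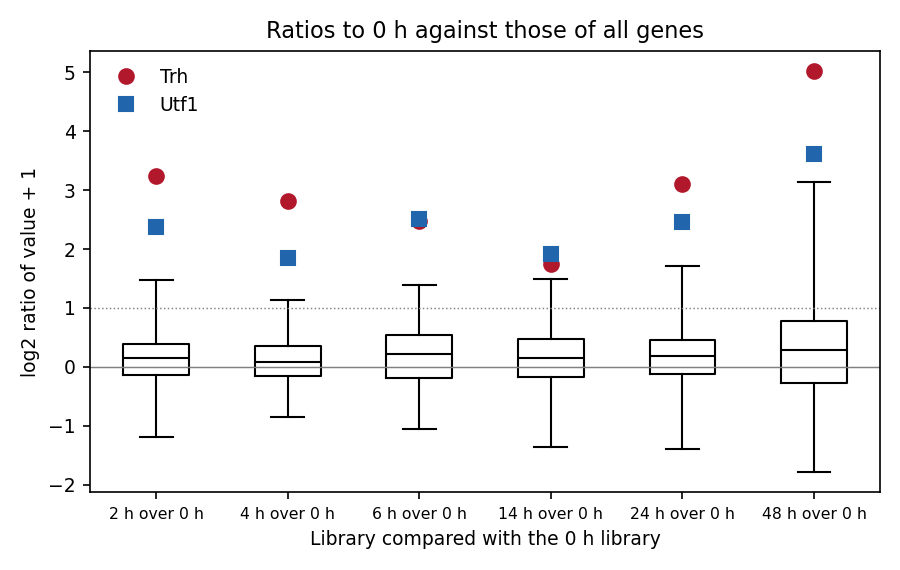
Log2 ratio of each later library to the 0 h library (value + 1) for Trh and Utf1, over boxes of all genes that reached a value of 10 in either library (box from quartile to quartile, line at the median, whiskers from percentile 1 to 99). Both genes lie above the upper whisker in every library, with Trh at 3.25 and 5.03 at 2 and 48 h and Utf1 at 2.37 and 3.62.

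Steps between later libraries do not involve 0 h. Those that start at 2 or 6 h do involve values that the genes were chosen for being high, so a fall from them is not free of the choice. Trh at 6 h was 0.577 of its 2 h value (0.535 to 0.623). Utf1 at 6 h was 1.103 times its 2 h value (1.04 to 1.18), but 0.975 of it with quantile normalization and 0.808 of it with the GC trend of each library removed. Both were lower at 14 h than at 6 h, Trh at 0.596 and Utf1 at 0.660 of the 6 h value. Counted from the lowest ratio, Trh ranked 162nd and Utf1 225th of 1548 genes in that step. Neither was 2-fold lower, as 4.97% of those genes were. A value at 14 h below both 6 h and 24 h was common, found in 33.7% of 1814 genes. At 24 h Trh was 2.63-fold above 14 h (2.38 to 2.90) and Utf1 1.47-fold above it (1.37 to 1.58), and 2.95% of 1525 genes were at least 2-fold higher in that step. Trh ranked 10th and Utf1 178th there. At 48 h Trh was 3.85-fold above 24 h (3.65 to 4.06) and Utf1 2.23-fold above it (2.12 to 2.34), a step in which 5.39% of 1597 genes were at least 2-fold higher. Trh ranked 10th and Utf1 51st in that step. Each step compares 1 library with 1 other, so it has no replicate check, and the intervals cover counting error alone.

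The libraries also differed in how the level of a gene followed its GC content, and Utf1 is extreme in that respect. Its transcript is 63.5% G and C, above 99.01% of genes, and that of Trh is 54.5%, above 74.4%. The trend with GC content in each library placed genes like Utf1 at -0.42, -0.18, -0.28, 0.27, 0.23, -0.19 and 0.58 (log2) relative to their means at 0, 2, 4, 6, 14, 24 and 48 h. For genes like Trh it ran from -0.20 in the 0 h library up to 0.24 in the 48 h library. After removal of that trend the ratio of 2 h to 0 h on the log2 scale was 3.11 for Trh and 2.13 for Utf1, and that of 48 h to 0 h was 4.60 for Trh and 2.62 for Utf1. Trh at 48 h stayed 1.63 (log2) above 24 h, while Utf1 at 48 h stood 0.39 above 24 h in place of 1.15. The step of Utf1 from 2 to 6 h turned its sign, with 6 h at -0.31 relative to 2 h in place of 0.14. Both genes were lowest at 0 h and highest at 48 h with and without the trend. The lowest library after 0 h was 14 h for Trh either way, but for Utf1 it was 4 h as deposited and 14 h with the trend removed.

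**Figure D3:**
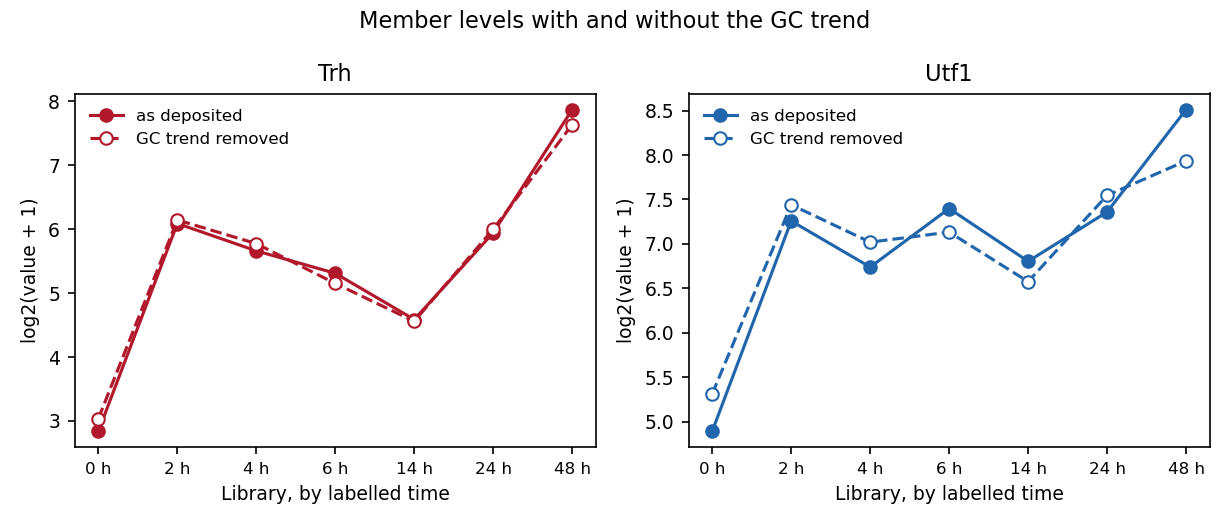
Levels of Trh and Utf1 as log2(value + 1) in each library, as deposited (filled points, solid line) and with the GC trend of each library removed (open points, dashed line). The 48 h point of Utf1 moves most: its ratio to 0 h is 2.62 with the trend removed and 3.62 as deposited.

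Pou3f2, the induced POU factor, had another course. Across 0, 2, 4, 6, 14, 24 and 48 h the Pou3f2 value was 77.0, 36.9, 47.3, 96.2, 119, 41.3 and 7.19. Among the later libraries Trh was lowest at 14 h, where Pou3f2 was highest, and both Trh and Utf1 were highest at 48 h, where Pou3f2 was lowest. The share of transgene reads in Pou3f2 was not given in the sources used here. Oct4 and Sox2 activate Utf1 in stem cells. The value of Pou5f1, which encodes Oct4, was lowest at 0 h (154), 220 at 2 h, 233.5 at 4 h and highest at 48 h (234.8). Its lowest and highest libraries were thus those of Utf1, as they were for 16.6% of 1814 genes. At 4 h, however, Pou5f1 was close to its 48 h value, while Utf1 as deposited was at its lowest after 0 h. Pou5f1 had no call (adjusted p = 0.449 by limma, in the trend test described below). Sox2 was lowest at 4 h (66.8) and highest at 48 h (97.0; adjusted p = 0.592 by limma). Whether either factor had a part in the course of Utf1 was not tested.

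Among genes with a mean value of at least 5, the profile nearest to that of Trh was that of Id1, an inhibitor of basic helix-loop-helix factors and a target of BMP signalling. Nearness was the root mean square difference over the 7 libraries between log2 profiles, each centred on its own mean, and 2458 other genes were compared. Id1 stood at 0.551 from Trh and Utf1 came next at 0.559, against a median of 1.41 over all genes. Trh and Utf1 were both chosen for values at 2, 4 and 6 h far above 0 h. A small distance between them thus follows in part from the choice, with or without the GC trend, and nothing is read from it. Across 0, 2, 4, 6, 14, 24 and 48 h the Id1 value was 0.828, 11.2, 7.38, 3.73, 3.77, 5.92 and 16.5. The others of the 8 nearest to Trh were Ccnd1 (cyclin D1, 0.688), Gbx2 (a homeobox factor, 0.769), Tubb3 (neuronal beta-tubulin, 0.786), Fscn1 (the actin bundler fascin, 0.811), Cd24a (a surface glycoprotein, 0.822) and Trp53i11 (0.841). Ccnd1 overlaps another gene, so its reads may be shared.

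The profile nearest to Utf1 was that of Fscn1, at 0.455, whose values were 19.5, 45.9, 34.5, 43.4, 30.2, 43.8 and 101 in order of time. It was followed by Hsd17b14 (a steroid dehydrogenase, 0.466), Nop10 (a subunit of box H/ACA ribonucleoproteins, 0.473), Tubb3 (0.485), F2rl1 (a protease-activated receptor, 0.494), Ddah2 (0.497), Id1 (0.503) and Mif (a cytokine, 0.524). Trh was 12th, and the median over all genes was 0.998. With the GC trend removed, 6 of the 8 genes nearest to Trh were the same, with Id1 and Utf1 still first and second. Of the 8 nearest to Utf1, 2 were the same, Nop10 and Hsd17b14. Id2 was then nearest to Utf1 at 0.255, and Trh was 135th. Tubb3 is a neuron marker. Of the 8 neuron markers, 4 reached a value of 1 in a library. Their summed level over all 8 was lowest at 0 h (69.6) and highest at 48 h (371), with 184 at 2 h and 129.7 at 14 h. Only Tubb3 and Map2 among them were both lowest at 0 h and highest at 48 h. Stmn2 (4.39) and Rbfox3 (0.0017) were highest at 4 h. Elavl3 was lowest at 14 h (0.119), Syp and Snap25 at 2 h and Dcx at 6 h. All 8 were higher at 48 h than at 0 h. The sum of the primitive endoderm markers was also lowest at 0 h (2.69) and highest at 48 h (11.1), but only 1 of them reached a value of 1. That was Foxa2, at 0.115 at 0 h and 4.62 at 48 h. Gata6 and Sox7 were also higher at 48 h than at 0 h, while Gata4, Sox17 and Pdgfra were lower. The sum of the fibroblast markers was highest at 48 h (18.7) but lowest at 14 h (2.18). Among them Col1a2 was at 2.16 at 48 h against 0.045 at 0 h, while Col1a1, Col3a1 and Pdgfrb were lower at 48 h than at 0 h. The part of other cell types in the values of Trh and Utf1 was not tested.

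**Figure D4:**
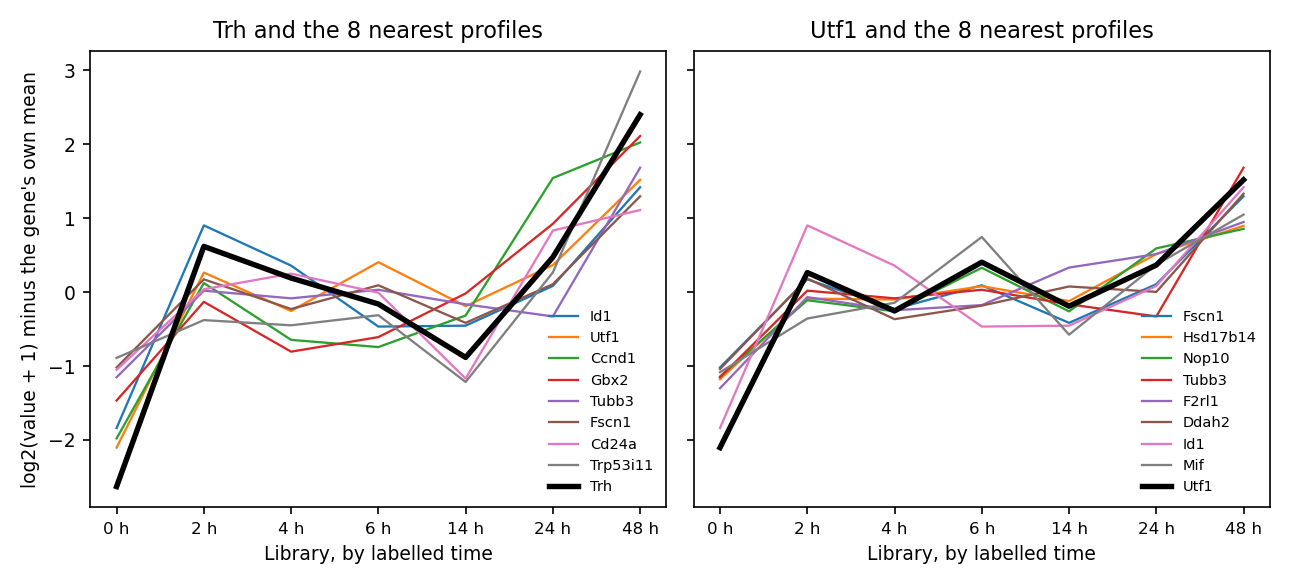
Profiles of Trh (left) and Utf1 (right) in black with the 8 nearest genes of each in colour, as log2(value + 1) minus each gene's mean over the 7 libraries. The root mean square difference ran from 0.551 (Id1) to 0.841 (Trp53i11) for Trh and from 0.455 (Fscn1) to 0.524 (Mif) for Utf1.

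The genes beside Trh and Utf1 on their chromosomes had low values throughout. On chromosome 6 the nearest protein-coding genes on either side of Trh are Rbsn, an endosomal protein, with values between 1.32 and 2.27, Mrps25, a mitochondrial ribosomal protein (2.31 to 3.69), Prickle2, a planar polarity protein (0.010 to 0.067), and Adamts9, a matrix protease (0.044 to 0.108). Rbsn was at 1.32 at 48 h against 2.27 at 0 h. On chromosome 7 the nearest to Utf1 are Kndc1 (0.045 to 0.140), Adgra1 (at most 0.034), Spef1l (at most 0.220) and Adam8 (at most 0.286). None of these 8 neighbours had a log2 ratio of 48 h to 0 h, with 1 added, above 0.073. For values far below 1 that ratio stays near 0 whatever their course, so it cannot show whether such genes rose. Without the added 1, Prickle2 (0.0146 at 0 h, 0.0672 at 48 h), Adamts9 and Kndc1 were higher at 48 h than at 0 h, and the other neighbours were lower.

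The genes around the 2 members were tested for a trend over all 7 libraries with limma, fitting a line of log2 levels, with 1 added, on log2 hours, with 1 added, and 19 of 6411 genes rose (0.296%) and 4 fell (0.0624%). In 9 lists, 92 genes had the mean value of at least 1 that the test required, and 1 of them rose and 0 fell. At an unadjusted p under 0.05 by limma, 11 of the 92 were higher and 16 lower, beside 746 higher and 635 lower of all 6411 genes. The riser was Otx2, a homeobox factor of the epiblast, whose values were 1.30, 1.60, 1.79, 1.82, 4.33, 5.06 and 9.01 in order of time (log2 change 2.19 ± 0.33 SE, adjusted p = 0.036 by limma). Its call was lost without the 2, 4, 24 or 48 h library (adjusted p between 0.0515 and 0.271), with pseudocount 5 (0.0674) and with no filter on low values (0.207). On values freed of the GC trend it was lost too (adjusted p = 0.0555), with a log2 change of 2.21. Because the spans of many neuropeptide genes are long and their values low, the same line was also fitted to recovered reads with limma-voom. There 301 of 13487 genes rose (2.23%) and 106 fell (0.786%), and of 142 list members tested 8 rose and 6 fell. Without the 48 h library none of these 14 was called on reads (0 rose and 0 fell among all 142, and 4 and 3 among all genes). Without the 4 h library Otx2, Lefty1 and Mdm2 were called and the other 11 were not (adjusted p between 0.0569 and 0.0865 by limma-voom). Calls lost without the 2 h library were those of Pcsk1n, Calca, Mycn, Aebp2, Dcp2, Dppa2 and Dppa5a (0.0556 to 0.0829). Those lost without the 0 h library were Calca, Aebp2, Dcp2 and Dppa2 (0.0613 to 0.174). Calca and Dppa5a were lost without the 6 h library (0.0611 and 0.0562), and Dppa5a without the 24 h library (0.0575).

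The genes that sense the TRH peptide outside the cell or break it down there had few reads. The hormone receptor Trhr had 2 to 15 reads a library, the second receptor Trhr2 had 2 reads in all 7 libraries together, and Trhde, the ectoenzyme that degrades TRH, had 18. The peptidases Prep and Pgpep1, which can cleave TRH inside cells, had 781 to 3191 and 302 to 667 reads a library, with no call on values (adjusted p = 0.797 and 0.684 by limma). Of the genes that mature the precursor, Pcsk2, a prohormone convertase, had 39, 18, 13, 32, 29, 115 and 877 reads in order of time. Its value was 0.0087 at 2 h against 0.0097 at 0 h, and it was highest at 48 h, at 0.202. Pcsk2 rose on reads (log2 change 5.36 ± 1.08 SE, adjusted p = 0.028 by limma-voom), as did Pcsk1n, a convertase inhibitor, with values of 8.30 at 48 h against 0.747 at 0 h (adjusted p = 0.036). Pcsk1n overlaps Eras, so its reads may be shared. Carboxypeptidase Cpe, with 234, 33 and 835 reads at 0, 2 and 48 h, missed the threshold (adjusted p = 0.066 by limma-voom), as did the amidating enzyme Pam (241, 91 and 752 reads, adjusted p = 0.077), Pcsk1 (27, 17 and 61 reads, adjusted p = 0.194) and the glutaminyl cyclase Qpct (269, 36 and 110 reads, adjusted p = 0.360).

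In the list of maturation and secretion genes, 2 of 16 tested on reads rose and 0 fell, with a median log2 change of -0.034 against -0.053 over all genes. Over all genes tested on reads, 2.23% rose and 0.786% fell, and these shares stand beside every list count on reads below. In the list of receptors, signalling and breakdown, 0 of 11 rose or fell on reads and 0 of 5 in the main test (median 0.39 on reads). Gna11, a G protein of the receptor's pathway, had values of 6.00, 9.50 and 7.07 at 0, 14 and 48 h (adjusted p = 0.692 by limma). Of 38 other neuropeptide and peptide hormone precursors in the table, 35 had a value above 0, 4 were tested on values and 10 on reads. Calca, the calcitonin gene, was the one that rose on reads (values of 0.761 at 48 h against 0.138 at 0 h, adjusted p = 0.042), and the median of the 10 was 0.91. Among genes known to regulate Trh in the brain, Arnt2, the partner of Sim1, rose on reads (0.129 at 48 h against 0.030 at 0 h, adjusted p = 0.024). It was 1 of 18 tested on reads, 0 fell, and their median was 0.028. Socs3, an inhibitor of cytokine signalling, had values of 15.1, 51.2 and 56.0 at 0, 14 and 48 h and missed the threshold (adjusted p = 0.085 by limma). Klf10, which regulates Trh in mice, had values of 22.02, 42.5 and 18.2 at 0, 2 and 48 h (adjusted p = 0.361).

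Of the genes of Polycomb repressive complex 2 tested on values, 1 of 9 had a positive fitted change, beside 3235 of 6411 over all genes. Their median was -0.51 against 0.006 over all genes, and 0 of the 9 passed. On reads 2 of 12 fell and 0 rose. The 2 were Mtf2, a Polycomb-like subunit, with values of 0.335 at 48 h against 1.77 at 0 h (adjusted p = 0.028), and Aebp2, a zinc-finger cofactor, with 0.672 at 48 h against 1.92 at 0 h (adjusted p = 0.037), both by limma-voom. Neither was called with the GC trend removed from the reads (adjusted p = 0.057 for Mtf2 and 0.166 for Aebp2), with log2 changes of -1.28 in place of -2.11 for Mtf2 and -0.995 in place of -1.68 for Aebp2. The core subunits did not pass: Eed had values of 4.01 at 48 h against 11.8 at 0 h (adjusted p = 0.113 by limma), Suz12 1.27 against 4.75 (adjusted p = 0.122) and the methyltransferase Ezh2 0.571 against 1.64 (adjusted p = 0.212). Epop, an inhibitory subunit of the complex, was the member with a positive change, with values of 55.8, 164 and 120.5 at 0, 2 and 48 h (adjusted p = 0.642). The histone-binding subunits Rbbp7, at 10.8 at 48 h against 19.9 at 0 h, and Rbbp4, at 27.7 against 33.4, did not pass either (adjusted p = 0.406 and 0.882).

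Of 19 decapping genes tested on reads (median -0.14), 0 rose and 1 fell, the decapping enzyme Dcp2 (values of 2.47 at 48 h against 6.87 at 0 h, adjusted p = 0.039 by limma-voom), and its call was lost with the GC trend removed (adjusted p = 0.131, log2 change -0.70 in place of -1.25). Dcp1a, named as the partner of Utf1, had 2.00 at 48 h against 3.31 at 0 h (adjusted p = 0.249 by limma) and overlaps another gene. The other decapping genes of mean at least 5 with the largest fitted changes did not pass: Lsm5 had 3.54 at 48 h against 19.7 at 0 h, Lsm2 16.95 against 6.59, Pnrc2 13.04 against 27.3 and Lsm7 21.5 against 15.1 (adjusted p between 0.138 and 0.525 by limma). In the Myc and Arf list, which Utf1 is known to touch in stem cells, the median on reads was 0.55 and 1 of 15 rose, Mycn, with 50.2 at 48 h against 9.85 at 0 h (adjusted p = 0.036), and 1 fell, Mdm2, the ubiquitin ligase of p53, with 4.00 at 48 h against 16.2 at 0 h (adjusted p = 0.035). Both calls were lost with the GC trend removed (adjusted p = 0.068 for Mycn and 0.066 for Mdm2), with log2 changes of 1.87 in place of 2.20 for Mycn and -1.90 in place of -2.18 for Mdm2. The p53 gene Trp53 had 35.3 at 48 h against 18.5 at 0 h (adjusted p = 0.507 by limma). Cdkn2a, the Arf locus, had 1.40 at 48 h against 0.348 at 0 h and missed the threshold on reads (adjusted p = 0.061 by limma-voom). Of 10 general activation partners 0 were called on reads or values (median -0.40 on reads). Atf2, a factor that Utf1 binds, had 0.665 at 48 h against 1.37 at 0 h (adjusted p = 0.108 by limma-voom), and Taf10, a TFIID subunit that overlaps Ilk, 72.1 against 34.3 (adjusted p = 0.157 by limma). The TFIID subunits Taf7 (26.2 against 59.8), Taf9 (7.54 against 6.56) and Taf6 (13.9 against 12.5) did not pass (adjusted p between 0.196 and 0.773).

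Among the Oct4 and Sox2 targets, with Utf1 left out, Otx2 alone of 30 was called on values. The fitted change was positive for 15 of the 30, beside 3235 of 6411 over all genes, and the median was -0.055. On reads 3 of 32 rose, Otx2, Lefty1 and Lefty2, and 2 fell, Dppa2 and Dppa5a. Lefty1, a Nodal antagonist, had values of 0.220, 1.01, 0.174 and 17.6 at 0, 2, 6 and 48 h (adjusted p = 0.010 by limma-voom), and Lefty2 had 1.91, 4.28, 1.04 and 25.6 (adjusted p = 0.037). At 14 h they stood at 4.34 (Lefty1) and 12.3 (Lefty2). Dppa5a, a marker of naive cells, had 1076, 1199, 869.6 and 491 at the same times (adjusted p = 0.045). Dppa2 had 7.30 at 48 h against 23.9 at 0 h (adjusted p = 0.036). Pou3f1, a POU factor of the epiblast, had 17.96 at 48 h against 270.5 at 0 h, with no call (adjusted p = 0.239 by limma). Lin28a, an RNA-binding protein, had a value of 13.7 at 2 h against 1.99 at 0 h, and 12.0 at 48 h, and missed the threshold (adjusted p = 0.159 by limma). Of the 5 calls on reads, those of Lefty2, Dppa2 and Dppa5a were lost with removal of the GC trend (adjusted p = 0.058, 0.080 and 0.064 by limma-voom, in that order). Their log2 changes were then 4.32 in place of 4.42 for Lefty2, -1.04 in place of -1.50 for Dppa2 and -1.20 in place of -1.25 for Dppa5a.

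**Figure D5:**
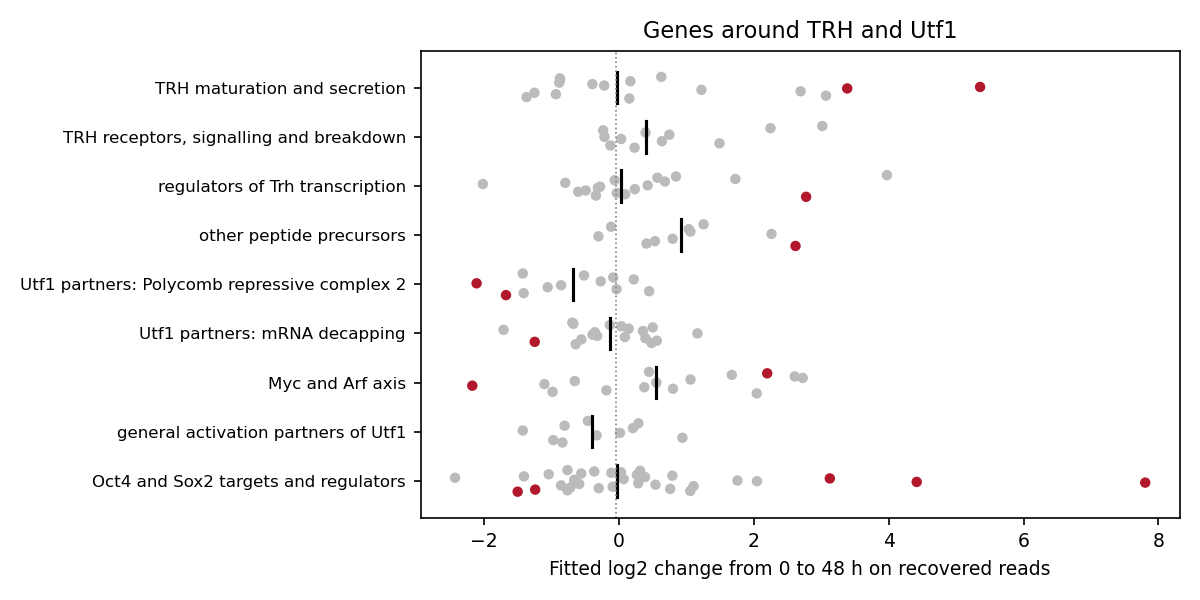
Fitted log2 change from 0 to 48 h on recovered reads for the members of 9 lists (1 point a gene, red where the adjusted p was under 0.05, black bar at the list's median, dotted line at the median of all genes, -0.053). Trh and Utf1 are left out; 8 red points lie right of 0, led by Lefty1 at 7.81 and Pcsk2 at 5.36, and 6 lie left of it.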

How the data were processed

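Messenger RNA was sequenced in 7 libraries of E14 cells, 1 per labelled time, prepared with an RNeasy kit and a Lexogen SENSE kit, per the labels' protocols. The authors deposited 1 signal per transcript and library, with no unit in the header. Per the submitters' processing notes reads were aligned to mm9 with Bowtie2. The version, the counting, any use of strand and the scaling were not given in the sources used here. Multiplied by genomic span and a depth fitted to each library, 91.3% to 93.7% of values worth 2 to 20 reads fell within 0.1 of an integer (chance gives 20%), over 1299 to 1467 values a library of genes with 1 transcript. The values are therefore treated as RPKM over the span, and reads are approximate because spans come from GRCm38.

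Of 30673 rows, 3320 were start site rows at 0 in every library. Transcripts were matched to symbols by accession (26245 matched), 695 further placements were left out, and the row of highest mean stood for each gene. Trends were tested with limma 3.58.1 in R 4.3.3 (eBayes with a mean-variance trend, 5 residual degrees of freedom, Benjamini-Hochberg adjustment). Each library counts as 1 independent point of the line. The reads fit used limma-voom on genes with at least 10 reads in at least 3 libraries. The GC trend was a natural spline (5 degrees of freedom) over 2447 genes of mean at least 5 for values; GC content was known for 6386 of the 6411 genes tested.

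On simulated data of 6408 genes the trend test called 19 of 67 genes changed 2-fold, 64 of 67 changed 4-fold, 66 of 66 changed 8-fold and 11 of 6208 unchanged genes. On simulated reads of 13587 genes it called 15 of 67, 61 of 67, 66 of 66 and 8 of 13387 in that order. The simulated noise was independent between genes, with no GC trend or other shift shared within a library. Changes were planted only in genes above a floor of level and reads. These counts therefore need not hold for the real libraries or for genes with few reads. Nor need they hold for courses far from the fitted line, where large changes can go without a call. Pou3f1 had values of 270.5, 445.6 and 17.96 at 0, 14 and 48 h, without a call (adjusted p = 0.239 by limma). Pou3f2, at 77.0, 119 and 7.19 at the same times, had no call either (adjusted p = 0.296 by limma). Named genes were the direct partners of TRH and Utf1, in each list up to 4 members, by size of fitted change, whose mean reached 5, members called, the 8 nearest profiles and the 2 nearest protein-coding genes on each side. The members and lists were chosen with earlier results of these data known. Fits on reads without each library or with the GC trend removed were chosen after seeing the data. Intervals are exact, Poisson for a level and Clopper-Pearson binomial for a ratio, and cover counting error alone; no molecular identifiers are mentioned in the labels.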

Additional observations from a re-analysis of the deposited data

How the results depend on the processing

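The direction of Trh and Utf1 relative to 0 h was the same under every alternative run that could change the values. Every run kept the same 0 h library, and the genes were chosen for their distance from it. The unchanged direction is therefore no independent check. The mean log2 ratio of 2, 4 and 6 h to 0 h was 2.84 for Trh (2.31 with pseudocount 5, 2.65 with the GC trend removed, 2.64 to 3.03 leaving out 1 library) and 2.24 for Utf1 (2.10 with pseudocount 5, 2.07 with quantile normalization, 1.89 with the GC trend removed, 2.11 to 2.44 leaving out 1 library). That of 14, 24 and 48 h was 3.29 for Trh (2.76 with pseudocount 5, 3.03 with the GC trend removed, 2.42 to 4.06 leaving out 1 library) and 2.67 for Utf1 (2.52 with pseudocount 5 and with quantile normalization, 2.04 with the GC trend removed, 2.19 to 3.04 leaving out 1 library). Pseudocount 0.1 and upper quartile scaling moved none of these beyond counting error. A mean over all rows of a gene is the same value here, since each gene has 1 row. Counts of calls depended on the setting: 19 rising and 4 falling genes became 36 and 7 with pseudocount 0.1, 0 and 0 with pseudocount 5, without a filter on low values and with the GC trend removed, 143 and 42 on the square root of hours and 301 and 106 on reads, and 1 gene fell with a mean of at least 5. Leaving out 1 library gave 1 to 52 rising and 0 to 24 falling. List members rising (1) numbered 0 with pseudocount 5, no filter, a mean of at least 5 or the GC trend removed, 5 on the square root of hours, 8 on reads and 0 to 3 leaving out 1 library; those falling (0) numbered 4, 6 and 0 to 1 in the last 3 of these. On reads, 8 list members rising and 6 falling became 7 and 1 with the GC trend removed, and 0 to 14 and 0 to 11 leaving out 1 library. The cause of these changes was not tested. No paired analysis was possible because each time point has 1 library. Few reads limit Trhr, Trhr2 and Trhde, at 15 or fewer a library.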

Other observations

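Besides Trh and Utf1, 8 genes stood at least 2-fold above 0 h in all 6 later libraries, among 1814 with a value of at least 10 in any library, and they were chosen after their values were seen. They were Id1, Ccnd1, Septin1, Hsd17b14, F2rl1, the histone genes H3c4 and H2bc18, and Rnf208. The smallest of the 6 ratios, with 1 added, was 3.60-fold for Utf1, 3.36-fold for Trh, 2.59-fold for Id1 and 2.35-fold for Ccnd1, and for the other 6 it lay between 2.01-fold and 2.31-fold. All these ratios share the 0 h library.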
